A study of Mus musculus with 12 samples.

Results

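The p53 and GADD45 damage response was followed through 10 genes of the mouse liver: *Trp53*, *Mdm2*, *Cdkn1a*, *Ccng1*, *Btg2*, *Gadd45a*, *Gadd45b*, *Gadd45g*, *Plk2* and *Plk3*. They were taken by gene symbol from a table of 45777 genes, and all 10 were present and had enough reads to be tested in every comparison. *Trp53* encodes p53, a transcription factor that accumulates as protein when DNA is damaged and switches on genes that halt the cell cycle, repair DNA or kill the cell. *Mdm2*, *Cdkn1a*, *Ccng1*, *Btg2*, *Gadd45a*, *Plk2* and *Plk3* are textbook p53 targets, and several of them, with *Gadd45b* and *Gadd45g*, are also immediate responses to stress kinases and cytokines, which act without p53. In the liver, *Mdm2* restrains p53 in hepatocytes, and the GADD45 proteins bind stress kinases and cell cycle proteins in injured and regenerating tissue.

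Liver RNA was sequenced from 12 male C57BL/6 mice aged 10 to 12 weeks, 3 in each of 4 groups. WT littermates or mice labelled *Gna12* KO (Gα12-/-, with no tissue-specific driver named in the labels) received vehicle or acetaminophen (APAP), a painkiller whose overdose injures hepatocytes through a reactive metabolite. By the study's methods, mice were fasted overnight, APAP was injected once at 300 mg/kg into the peritoneum, and livers were taken 6 h later. The series asked how the G protein Gα12 bears on this injury. The livers are whole tissue, so fewer cells of a type and less RNA per cell cannot be told apart, and only RNA was measured, not p53 protein.

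The targeted gene was examined first. *Gna12* was at 66.7, 34.8 and 63.3 CPM (a gene's reads relative to the scaled total of its library) in WT vehicle replicates 1 to 3, and at 23.7, 58.1 and 50.5 CPM in WT APAP livers. It was at 67.2, 66.6 and 54.6 CPM in vehicle livers labelled KO and at 43.5, 48.3 and 46.2 CPM in APAP livers labelled KO. The WT livers differed from the KO-labelled livers by -0.19 on the log2 scale with vehicle (edgeR's adjusted p = 0.878) and by -0.05 after APAP (adjusted p = 0.993). *Gna12* RNA was therefore not found lower under the KO label, and the groups are named here by their labels. The paper examined its WT and KO mice by PCR of tail DNA, by liver qRT-PCR for *Gna12* and by blots of Gα12 protein. The counts span the whole gene, and the removed stretch is not given in the sources used here. Total counts per liver ranged from 49737950 to 69566079. The 10 hepatocyte markers, none of them at 0, summed to between 76234 and 155095 CPM. Separate livers stood apart in their groups: WT APAP replicate 1 held 17367 CPM of erythroid markers, against 253 to 749 CPM in the other 11 livers, and 134 CPM of neutrophil markers, and WT vehicle replicate 2 held 20.3 CPM of neutrophil markers, against 1.20 to 2.54 CPM in the other vehicle livers. Values without these livers stand beside the results that moved most with them.

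The promoters of the 10 genes were read for binding motifs. The windows of 250 bases before to 50 bases after each RefSeq start (GRCm38.p6) were searched on both strands, 11 windows in all because *Cdkn1a* has starts 2790 bases apart. The p53 decamer, the 10-base unit of its binding site, lay in windows of 5 genes (*Trp53*, *Mdm2*, *Cdkn1a*, *Ccng1* and *Gadd45a*) and in 8.36% of all 32851 promoter windows of the table. A pair of decamers no more than 13 bases apart, the arrangement that p53 binds as a tetramer, was found at the upstream *Cdkn1a* start alone among the 11 windows and in 24 (0.0731%) of all windows. The cAMP response element TGACGTCA, bound by CREB and ATF proteins, was present before *Btg2* and *Plk2* and in 1.79% of all windows. Its shorter form TGACG, which overlaps the full element, lay in windows of 4 genes (*Mdm2*, *Btg2*, *Plk2* and *Plk3*) and in 20.8% of all windows. Matches are letters in a window, not shown binding, and sequence outside the windows was not searched.

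The 250 bases upstream of 4 starts are printed because they carry these matches, which are in capitals. *Cdkn1a* is shown at chr17:29090729-29090978 (GRCm38.p6, plus strand), with decamers that start 73 and 51 bases before the upstream start. *Btg2* is shown at chr1:134079156-134079405 (minus strand), with the element starting 166 bases before the gene, and *Plk2* at chr13:110394794-110395043 (plus strand), with the element 62 bases before the gene. *Plk3* is shown at chr4:117133964-117134213 (minus strand), with the short form at 132 and 63 bases before the gene.
Cdkn1a: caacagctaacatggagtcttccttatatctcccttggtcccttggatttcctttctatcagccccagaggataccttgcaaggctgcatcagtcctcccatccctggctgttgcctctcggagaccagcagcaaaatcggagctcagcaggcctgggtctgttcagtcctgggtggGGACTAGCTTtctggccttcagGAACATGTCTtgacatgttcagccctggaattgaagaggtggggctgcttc
Btg2: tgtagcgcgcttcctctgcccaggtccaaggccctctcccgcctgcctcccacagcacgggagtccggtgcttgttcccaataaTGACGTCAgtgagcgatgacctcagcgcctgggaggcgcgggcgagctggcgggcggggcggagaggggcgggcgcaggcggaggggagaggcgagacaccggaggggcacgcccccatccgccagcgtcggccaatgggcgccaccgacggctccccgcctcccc
Plk2: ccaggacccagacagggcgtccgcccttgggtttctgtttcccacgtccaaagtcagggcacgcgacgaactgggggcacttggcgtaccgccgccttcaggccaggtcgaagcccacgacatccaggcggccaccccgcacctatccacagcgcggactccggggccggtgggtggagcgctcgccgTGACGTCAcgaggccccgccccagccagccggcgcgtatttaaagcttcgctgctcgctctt
Plk3: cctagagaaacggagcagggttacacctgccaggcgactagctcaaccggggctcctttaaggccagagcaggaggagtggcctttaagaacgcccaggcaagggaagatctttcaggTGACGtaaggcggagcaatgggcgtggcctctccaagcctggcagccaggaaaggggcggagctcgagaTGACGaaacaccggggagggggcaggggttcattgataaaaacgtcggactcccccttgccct

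Other motifs were searched in the same way. The AP-1 site TGANTCA was in 0 of the 11 windows and in 7.81% of all. CCAAT boxes (letters CCAAT) lay in windows of 7 genes against 37.4% of all windows, GC boxes (GGGCGG) in 7 against 35.7%, and the TATA letters (TATAAA) in 3 against 13.6%. The TATA letters lay 27 bases before the start of *Gadd45g*, 46 before *Gadd45b* and 248 before *Trp53*. The antioxidant element TGACNNNGC was in windows of 3 genes against 12.4%, the hypoxia element ACGTG in 4 against 19.6%, the ATF4-C/EBP motif TGATGNAA in 1 (*Gadd45g*) against 3.97% and the NF-kB motif in 1 (*Trp53*) against 8.46%. The CArG box (1.63% of all windows) and the EGR motif GCGTGGGCG (0.612%) had no match. The antioxidant element can share its TGAC with the short TGACG.

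**Figure D1:**
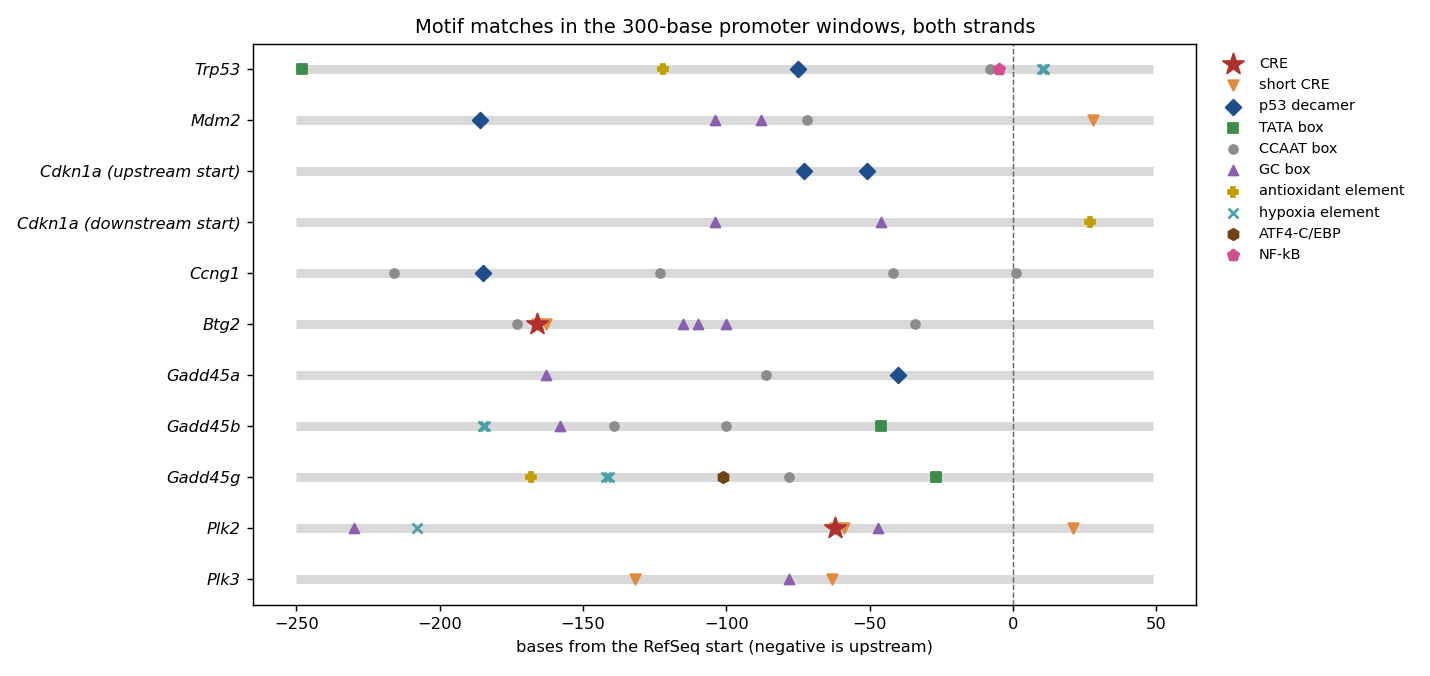
Motif matches on either strand in the 11 promoter windows of the 10 genes, plotted by bases from the RefSeq start (negative is upstream), 1 row per window and 1 symbol per motif. The stars in the *Btg2* and *Plk2* rows are the full cAMP response elements at 166 and 62 bases before the start, and the paired diamonds in the upper *Cdkn1a* row are the p53 decamers.

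Levels between genes were compared per transcript length, in TPM (transcripts relative to the library total). In vehicle livers labelled KO, *Plk3* was highest at 57.7 ± 22.4 TPM (SD, n = 3), its range apart from *Gadd45g* at 24.2 ± 9.29 TPM. *Mdm2* at 15.5 ± 2.83, *Ccng1* at 12.0 ± 2.94 and *Trp53* at 11.8 ± 2.95 TPM followed with overlapping ranges. A lower group came after a gap, with *Cdkn1a* at 4.38 ± 1.89, *Btg2* at 3.43 ± 0.365, *Plk2* at 3.40 ± 0.625 and *Gadd45b* at 2.73 ± 0.803 TPM. *Gadd45a* was lowest at 1.36 ± 0.440 TPM, its highest liver at 1.818 TPM lying just under the lowest *Gadd45b* liver at 1.825 TPM. In WT vehicle livers the order began with *Plk3* at 110 ± 88.9 TPM and ended with *Gadd45b* at 2.65 ± 0.266 TPM, and every neighbouring pair overlapped in range. Within each of these livers *Plk3* still lay above *Gadd45g*. They were at 59.4 and 39.4 TPM in replicate 1, 213 and 134 TPM in replicate 2, and 58.8 and 37.9 TPM in replicate 3. After APAP, *Plk3* stayed highest, at 429 ± 88.6 TPM in WT livers and at 483 ± 168 TPM in livers labelled KO. *Cdkn1a* reached 111 ± 67.0 and 121 ± 39.4 TPM, and *Gadd45a* reached 92.4 ± 38.3 and 79.7 ± 16.5 TPM. *Trp53*, *Plk2* and *Ccng1* were the 3 lowest in both APAP groups, with *Ccng1* last at 7.40 ± 3.65 and 9.79 ± 2.20 TPM. The transcript of the central regulator lay among the most abundant 5 of the 10 with vehicle and among the least abundant 3 after APAP.

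APAP raised most of the 10 genes. Over all 12 livers, with the genotype label as a covariate, 8 genes were higher and 1 was lower after APAP at an adjusted p under 0.05 (edgeR's quasi-likelihood test, Benjamini-Hochberg over the 16509 genes tested), where 14% of all genes tested were called higher and 11.4% lower. The genes called higher were *Mdm2*, *Cdkn1a*, *Btg2*, *Gadd45a*, *Gadd45b*, *Gadd45g*, *Plk2* and *Plk3*, with log2 fold changes from 1.38 for *Gadd45g* to 4.81 for *Gadd45a*. *Ccng1* was the one called lower, and *Trp53* was not called. The 6 APAP livers did not overlap with the 6 vehicle livers, and lay higher, for 6 genes (*Mdm2*, *Cdkn1a*, *Gadd45a*, *Gadd45b*, *Plk2* and *Plk3*), against 7.11% of all genes tested. The median log2 fold change of the 10 genes was 2.17, and that of all genes tested was 0.01.

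**Figure D2:**
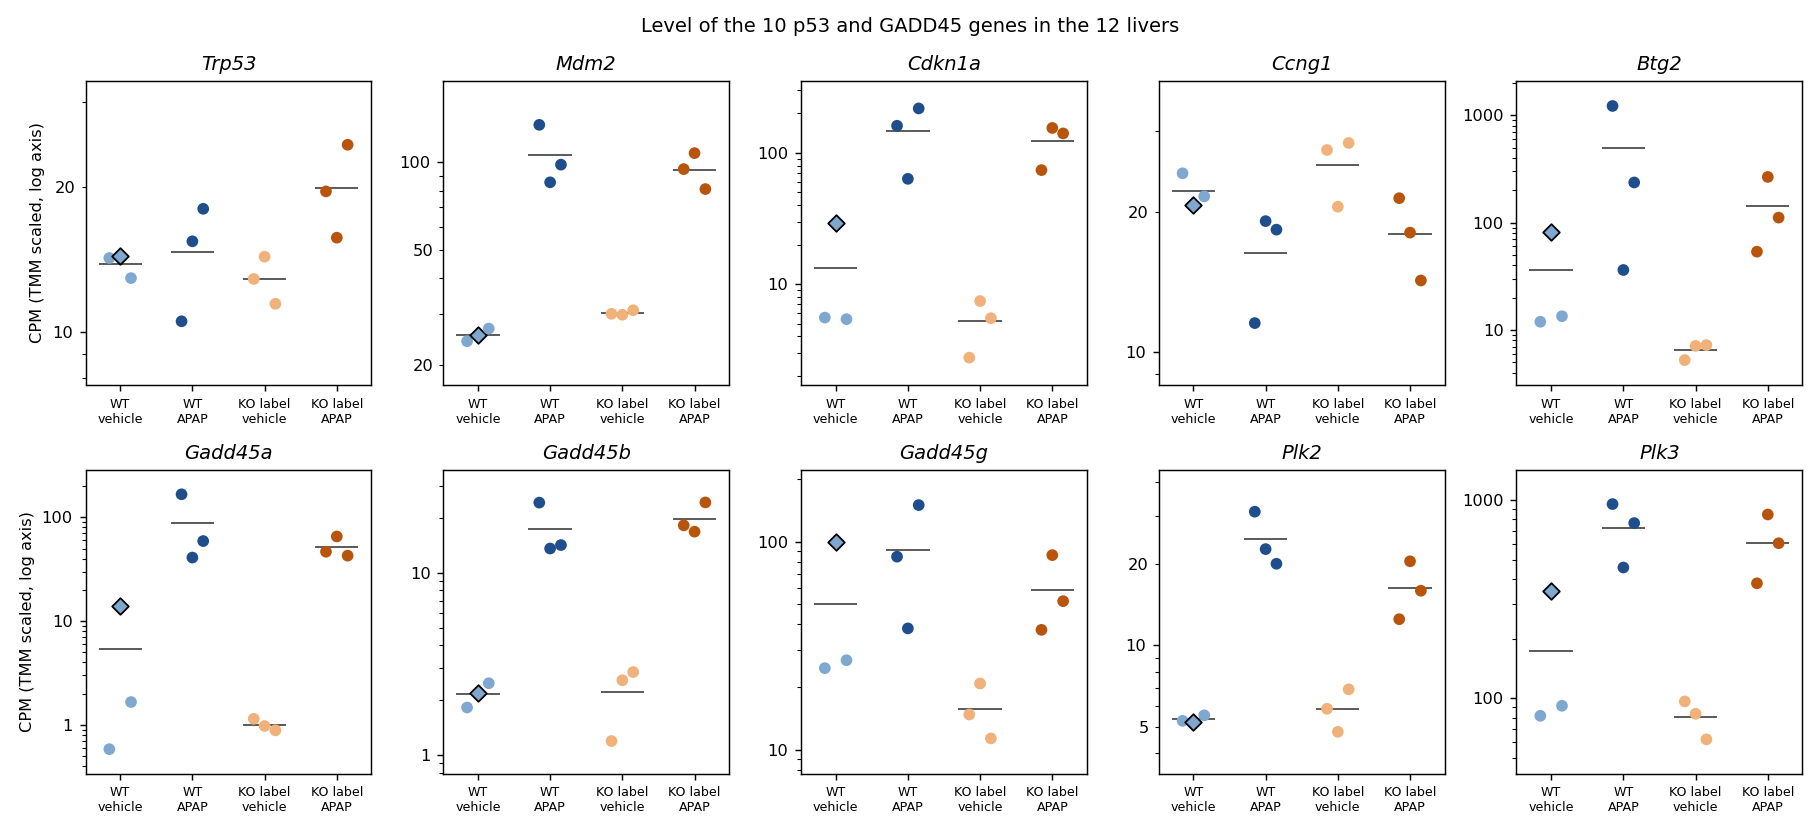
CPM of each gene in the 12 livers on log axes, 1 point per liver in 4 groups of 3, with a line at the group mean. The diamond is WT vehicle replicate 2, which sits above the other vehicle livers for *Cdkn1a*, *Btg2*, *Gadd45a*, *Gadd45g* and *Plk3* but among them for *Mdm2*, *Gadd45b* and *Plk2*.

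*Trp53* (gene ID 22059, chr11:69580348-69591873) was at 14.2, 14.3 and 12.9 CPM in WT vehicle livers and at 10.5, 15.4 and 18.0 CPM in WT APAP livers. It was at 12.9, 14.3 and 11.4 CPM in vehicle livers labelled KO and at 19.5, 15.7 and 24.4 CPM in APAP livers labelled KO. The KO-labelled APAP livers all lay above their vehicle livers, while WT APAP replicate 1 was the lowest of all 12. The log2 fold change was 0.36 over the 12 livers (standard error 0.16, edgeR's adjusted p = 0.127). Without WT APAP replicate 1 *Trp53* was called higher, at 0.48 (edgeR's adjusted p = 0.0170), and it was not called when any other single liver was left out.

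*Mdm2* (gene ID 17246, chr10:117688875-117710758) encodes the ubiquitin ligase that marks p53 for degradation, and p53 activates it in return. It was at 24.1, 25.4 and 26.7 CPM in WT vehicle livers and at 135, 85.4 and 98.3 CPM in WT APAP livers. It was at 30.01, 29.8 and 30.9 CPM in vehicle livers labelled KO and at 94.9, 108 and 80.9 CPM in APAP livers labelled KO. The vehicle values were tight and no APAP liver came near them: the lowest APAP liver was 2.62-fold above the highest vehicle liver other than WT vehicle replicate 2. Over the 12 livers *Mdm2* rose 3.61-fold (log2 fold change 1.85, standard error 0.13, edgeR's adjusted p = 2.51e-06), with the smallest adjusted p of the 10 genes.

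Of the genes that hold back the cell cycle, *Cdkn1a* and *Btg2* rose, and *Ccng1* was called lower with a call that did not hold under every setting. *Cdkn1a* (gene ID 12575, chr17:29090979-29100722) encodes p21, the inhibitor of cyclin-dependent kinases through which p53 arrests cells. It was at 5.56, 29.1 and 5.41 CPM in WT vehicle livers and at 161, 63.5 and 218 CPM in WT APAP livers. It was at 2.75, 7.44 and 5.50 CPM in vehicle livers labelled KO and at 74.0, 155 and 141 CPM in APAP livers labelled KO. Vehicle and APAP livers did not overlap, although WT vehicle replicate 2 stood 5.29-fold above the median of the other 5 vehicle livers. Over the 12 livers *Cdkn1a* rose 16.1-fold (log2 fold change 4.01, standard error 0.53, edgeR's adjusted p = 0.000218), and the log2 value was 4.64 without WT vehicle replicate 2 and 4.06 without WT APAP replicate 1.

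*Btg2* (gene ID 12227, chr1:134074865-134079155) encodes an antiproliferative protein that recruits the deadenylases that shorten mRNA tails. It was the most variable of the 10 genes after APAP. It was at 11.9, 82.4 and 13.4 CPM in WT vehicle livers and at 1223, 36.2 and 237 CPM in WT APAP livers, so the highest WT APAP liver was 33.8-fold above the lowest. It was at 5.24, 7.11 and 7.23 CPM in vehicle livers labelled KO and at 53.7, 267 and 111 CPM in APAP livers labelled KO. WT vehicle replicate 2 lay above WT APAP replicate 2, so the treatments overlapped. The rise over the 12 livers was 17.5-fold (log2 fold change 4.13, standard error 0.80, edgeR's adjusted p = 0.00248). The log2 fold change of *Btg2* was 4.83 without WT vehicle replicate 2, 3.40 without WT APAP replicate 1 and 4.06 without both, and the gene was called in each case.

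*Ccng1* (gene ID 12450, chr11:40748552-40755309) encodes cyclin G1, a p53 target that feeds back on MDM2 through a phosphatase, and it went against the rest. It was at 24.3, 20.7 and 21.7 CPM in WT vehicle livers and at 11.6, 19.2 and 18.4 CPM in WT APAP livers. It was at 27.3, 20.6 and 28.2 CPM in vehicle livers labelled KO and at 21.5, 18.1 and 14.3 CPM in APAP livers labelled KO. The WT groups did not overlap and the KO-labelled groups did. Over the 12 livers the log2 fold change was -0.47 (standard error 0.14, edgeR's adjusted p = 0.0308). The call was lost when WT vehicle replicate 1 or 3, KO-labelled vehicle replicate 1 or 3, or KO-labelled APAP replicate 2 or 3 was left out, with adjusted p-values from 0.0513 to 0.0770 (edgeR). It was also lost with the replicate number as a block (edgeR's adjusted p = 0.0608).

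All 3 GADD45 genes were called higher over the 12 livers, by unequal amounts. *Gadd45a* (gene ID 13197, chr6:67035096-67037407), the family member that p53 controls directly, moved most of the 10 genes. It was at 0.582, 13.9 and 1.66 CPM in WT vehicle livers and at 167, 40.9 and 59.1 CPM in WT APAP livers. It was at 1.14, 0.973 and 0.884 CPM in vehicle livers labelled KO and at 46.6, 65.4 and 42.7 CPM in APAP livers labelled KO. The lowest APAP liver was 24.7-fold above the highest of the 5 vehicle livers other than WT vehicle replicate 2, and that liver was itself 14.3-fold above their median. The rise over the 12 livers was 28.1-fold (log2 fold change 4.81, standard error 0.72, edgeR's adjusted p = 0.000473). On the log2 scale it was 5.96 without WT vehicle replicate 2, 4.55 without WT APAP replicate 1 and 5.61 without both, and *Gadd45a* was called in each case.

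*Gadd45b* (gene ID 17873, chr10:80930091-80932204) is the family member best known as a target of TGF-β and NF-kB signalling. It was at 1.82, 2.20 and 2.48 CPM in WT vehicle livers and at 24.3, 13.6 and 14.2 CPM in WT APAP livers. It was at 1.19, 2.57 and 2.85 CPM in vehicle livers labelled KO and at 18.2, 16.8 and 24.3 CPM in APAP livers labelled KO. WT vehicle replicate 2 was not apart from the other vehicle livers here, and the lowest APAP liver was 4.76-fold above the highest of the other 5 vehicle livers. The rise was 8.49-fold (log2 fold change 3.09, standard error 0.23, edgeR's adjusted p = 3.2e-06).

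*Gadd45g* (gene ID 23882, chr13:51846675-51848475), induced by cytokines in many tissues, rose least of the 3. It was at 24.6, 99.6 and 26.9 CPM in WT vehicle livers and at 84.8, 38.3 and 150 CPM in WT APAP livers. It was at 14.7, 20.8 and 11.3 CPM in vehicle livers labelled KO and at 37.7, 86.2 and 51.8 CPM in APAP livers labelled KO. WT vehicle replicate 2 was higher than 5 of the 6 APAP livers, and without it the lowest APAP liver still lay 1.40-fold above the highest vehicle liver. Without that liver the log2 fold change was 1.87. Over the 12 livers the rise was 2.60-fold (log2 fold change 1.38, standard error 0.43, edgeR's adjusted p = 0.0327), and the call was lost when WT vehicle replicate 1 or 3, WT APAP replicate 3, any KO-labelled vehicle liver, or KO-labelled APAP replicate 2 or 3 was left out (adjusted p from 0.0564 to 0.0970).

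Both stress polo-like kinases rose. *Plk2* (gene ID 20620, chr13:110395044-110400844) encodes a kinase of the centriole cycle and the checkpoint after damage. It was at 5.28, 5.22 and 5.53 CPM in WT vehicle livers and at 31.1, 22.7 and 20.0 CPM in WT APAP livers. It was at 5.84, 4.81 and 6.89 CPM in vehicle livers labelled KO and at 12.5, 20.4 and 15.9 CPM in APAP livers labelled KO. The WT vehicle livers differed by only 1.06-fold from lowest to highest. The rise over the 12 livers was 3.58-fold (log2 fold change 1.84, standard error 0.18, edgeR's adjusted p = 2.88e-05).

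*Plk3* (gene ID 12795, chr4:117128655-117133963) encodes a kinase that can phosphorylate p53 under stress. It was at 81.7, 347 and 91.7 CPM in WT vehicle livers and at 954, 457 and 765 CPM in WT APAP livers. It was at 96.5, 83.6 and 62.1 CPM in vehicle livers labelled KO and at 380.3, 845 and 606 CPM in APAP livers labelled KO. WT vehicle replicate 2 came close to the lowest APAP liver without reaching it. The rise was 5.62-fold (log2 fold change 2.49, standard error 0.39, edgeR's adjusted p = 0.000645), and *Plk3* was at 2.98 on the log2 scale without WT vehicle replicate 2.

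WT vehicle replicate 2 stood above the other vehicle livers for some of the 10 genes and not for others. It lay above the lowest APAP liver for *Btg2* and *Gadd45g*, and below all APAP livers for *Cdkn1a*, *Gadd45a* and *Plk3*. Its level was above the median of the other 5 vehicle livers 14.3-fold for *Gadd45a*, 11.4-fold for *Btg2*, 5.29-fold for *Cdkn1a*, 4.79-fold for *Gadd45g* and 4.15-fold for *Plk3*. The same ratio was 1.11 for *Trp53*, 0.944 for *Plk2*, 0.889 for *Gadd45b*, 0.854 for *Mdm2* and 0.854 for *Ccng1*. Among the 8 genes called higher after APAP over the 12 livers, this liver was the highest of the 6 vehicle livers for 5 and vehicle replicate 3 of the KO label for 3. Over all 2307 genes called higher, WT vehicle replicate 2 was the highest vehicle liver for 892 (38.7%) and vehicle replicate 3 of the KO label for 314 (13.6%). The neutrophil marker sum of WT vehicle replicate 2, 20.3 CPM, was also the highest of the 6 vehicle livers. Among KO-labelled APAP livers, replicate 2 had the lowest such sum, 1.20 CPM. That liver was the highest of its group for *Cdkn1a*, *Btg2*, *Gadd45a*, *Gadd45g* and *Plk3*. WT APAP replicate 1 had the highest sum, 134 CPM, and of these 5 genes was the highest of its group for *Btg2*, *Gadd45a* and *Plk3*. The part of neutrophils in these genes was not tested.

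Taken by label, fewer of the genes passed in WT livers than in livers labelled KO. In WT livers 3 genes were called higher, *Mdm2*, *Gadd45b* and *Plk2*, and 0 lower, where 1.62% of all genes tested were called higher and 0.427% lower. By DESeq2 6 were called higher and 0 lower, by limma 3 and 0, and 7 had an unadjusted p under 0.05 by edgeR, all of them higher. Of all 15693 genes, DESeq2 called 877 higher, limma on log2(TPM + 1) called 169 higher, and 2817 had an unadjusted p under 0.05 by edgeR. *Mdm2* rose 4.21-fold (log2 fold change 2.07, standard error 0.21, edgeR's adjusted p = 0.00725), *Gadd45b* 8.06-fold (3.01, standard error 0.30, adjusted p = 0.00659) and *Plk2* 4.63-fold (2.21, standard error 0.22, adjusted p = 0.00659). The WT APAP livers were all above the WT vehicle livers for 6 genes, against 12.9% of all genes tested, so *Cdkn1a*, *Gadd45a* and *Plk3* were separated without being called. Their log2 fold changes were 3.48 for *Cdkn1a* (edgeR's adjusted p = 0.0722), 4.06 for *Gadd45a* (0.124) and 2.08 for *Plk3* (0.129). *Btg2* at 3.81 (edgeR's adjusted p = 0.182), *Gadd45g* at 0.86 (0.525), *Trp53* at 0.09 (0.864) and *Ccng1* at -0.43 (0.355) were not called either.

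Without WT vehicle replicate 2, 6 genes were called higher in WT livers, *Cdkn1a*, *Gadd45a* and *Plk3* joining the first 3, and 181 of all 16387 genes tested were called higher. The log2 fold change was then 4.75 for *Cdkn1a*, 6.32 for *Gadd45a*, 3.07 for *Plk3* and 5.30 for *Btg2*. The same 6 genes were called without both WT vehicle replicate 2 and WT APAP replicate 1, a setting added after the data were seen. It called 435 of all 15903 genes tested higher. Without WT vehicle replicate 1 or replicate 3, *Mdm2* was lost and 2 genes were called, beside 42 of 16333 and 41 of 16338 genes tested called higher.

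In livers labelled KO, 9 genes were called higher and 0 lower, where 13% of all genes tested were called higher and 9.6% lower. By DESeq2 9 were called higher and 0 lower and by limma 8 and 0, and all 10 genes had an unadjusted p under 0.05 by edgeR, *Ccng1* in the lower direction. Of all 15665 genes, DESeq2 called 2328 higher, limma on log2(TPM + 1) called 1643 higher, and 5804 had an unadjusted p under 0.05 by edgeR. The APAP livers lay above all vehicle livers for the same 9 genes, against 21.8% of all genes tested. *Gadd45a* rose 51.6-fold (log2 fold change 5.69, standard error 0.23, edgeR's adjusted p = 1.21e-05), *Cdkn1a* 23.8-fold (4.57, standard error 0.42, adjusted p = 0.000524) and *Btg2* 22.2-fold (4.48, standard error 0.56, adjusted p = 0.00189). *Gadd45b* rose 9.09-fold, *Plk3* 7.61-fold, *Gadd45g* 3.78-fold, *Mdm2* 3.15-fold and *Plk2* 2.80-fold, with adjusted p-values from 0.000332 for *Mdm2* to 0.00582 for *Gadd45g* (edgeR). *Trp53* was 1.56-fold higher (log2 fold change 0.64, standard error 0.18, edgeR's adjusted p = 0.0337), a call that held when KO-labelled APAP replicate 2 was left out and was lost when any other of the 6 livers was. *Ccng1* had a log2 fold change of -0.49 (edgeR's adjusted p = 0.0936).

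**Figure D3:**
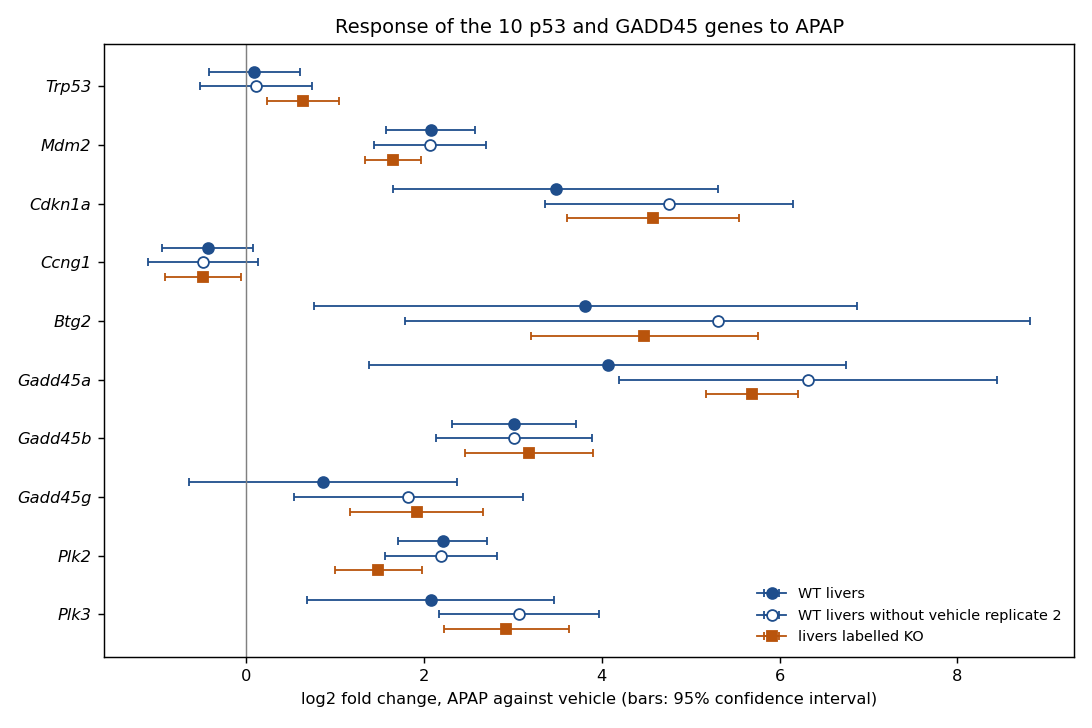
Log2 fold change of each gene, APAP against vehicle, with bars of the 95% confidence interval. Filled circles are WT livers, open circles WT livers without vehicle replicate 2, and squares livers labelled KO; for *Gadd45a* the WT value moves from 4.06 to 6.32 when that vehicle liver is left out, beside 5.69 under the KO label, while *Plk2* hardly moves.

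The smaller number of calls in WT livers is not a test of a difference between the labels. That difference is the interaction of genotype label and treatment, and 0 of the 10 genes passed it, as 0% of the 16509 genes tested did (edgeR, with 848 genes at an unadjusted p under 0.05). DESeq2 called 7 of all genes higher and 2 lower, none of them among the 10. DESeq2 and limma also called 0 of the 10. With limma on log2(TPM + 0.1), 0 of the 10 had an unadjusted p under 0.05. By edgeR, DESeq2 and limma on log2(TPM + 1), 1 gene of the 10 had one. That gene was *Plk2*, whose response was larger in WT livers by 0.72 on the log2 scale (95% interval 0.06 to 1.39, edgeR's adjusted p = 0.872), and by 0.50 without WT APAP replicate 1. For *Gadd45a* the difference was -1.63 (95% interval -4.29 to 1.03) and for *Cdkn1a* -1.09 (-3.10 to 0.91), and both turned positive without WT vehicle replicate 2, at 0.63 and 0.19. The interval for *Mdm2* ran from -0.11 to 0.94 around 0.42, and that for *Btg2* from -3.83 to 2.50, so 3 livers a group left a wide range for the strongly variable genes.

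Between the labels after APAP, 0 of the 10 genes were called by edgeR, DESeq2 or limma, against 0.0309% of all genes tested (5 of 16174). The WT and KO-labelled APAP livers overlapped for all 10 genes, whereas 8.73% of all genes tested did not overlap. *Plk2* alone had an unadjusted p under 0.05 by edgeR, as 536 of all 16174 genes tested did. It was higher in WT by 0.61 on the log2 scale (95% interval 0.05 to 1.18, edgeR's adjusted p = 0.958), and by 0.39 without WT APAP replicate 1. With limma on log2(TPM + 0.1), 0 of the 10 genes had an unadjusted p under 0.05. *Mdm2* differed by 0.18 (95% interval -0.33 to 0.70), *Cdkn1a* by 0.27 (-0.75 to 1.301) and *Gadd45b* by -0.17 (-0.79 to 0.45). The *Btg2* difference of 1.82 (95% interval -0.67 to 4.31) rested on WT APAP replicate 1 and was -0.08 without it. *Gadd45a* went likewise from 0.81 to -0.04.

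Between the labels with vehicle, 0 of the 10 genes were called by any of the 3 tools, against 0.0262% of all genes tested (4 of 15262). An unadjusted p under 0.05 was reached by 4 genes with edgeR, 3 with DESeq2 and 3 with limma on log2(TPM + 1). Limma on log2(TPM + 0.1) gave 2. Of all 15262 genes tested, 1154, 1224, 1151 and 1139 reached it in that order. The WT livers lay apart from the KO-labelled livers for 3 genes, higher for *Btg2* and *Gadd45g* and lower for *Mdm2*, and 14% of all genes tested were apart in either direction. *Btg2* was 2.46 higher on the log2 scale (95% interval 0.77 to 4.16, edgeR's adjusted p = 0.563), *Gadd45a* 2.42 (0.06 to 4.78, adjusted p = 0.654) and *Gadd45g* 1.69 (0.42 to 2.96, adjusted p = 0.588). Without WT vehicle replicate 2 these differences were 0.95, 0.15 and 0.72. *Cdkn1a* went from 1.36 to 0.07 and *Plk3* from 1.10 to 0.10 in the same way. *Mdm2* was lower in WT (log2 difference -0.25, 95% interval -0.50 to -0.0015, edgeR's adjusted p = 0.654).

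Livers of one group varied together in some of these genes. After the group means were removed, deviations over the 12 livers correlated at Pearson r = 0.90 for *Cdkn1a* and *Gadd45g*, 0.89 for *Gadd45a* and *Plk3*, and 0.88 for *Gadd45g* and *Plk3*. Without WT vehicle replicate 2 these were 0.81, 0.65 and 0.78. Other pairs fell further without that liver, *Cdkn1a* and *Gadd45a* from 0.71 to 0.27 and *Gadd45a* and *Gadd45g* from 0.71 to 0.36. *Trp53* ran opposite to *Mdm2*, at -0.85 over the 12 livers and -0.69 without WT vehicle replicate 2 and WT APAP replicate 1, and opposite to *Plk2*, at -0.78 and -0.65. These values describe 12 livers that share libraries and depth, and no test was made of them.

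**Figure D4:**
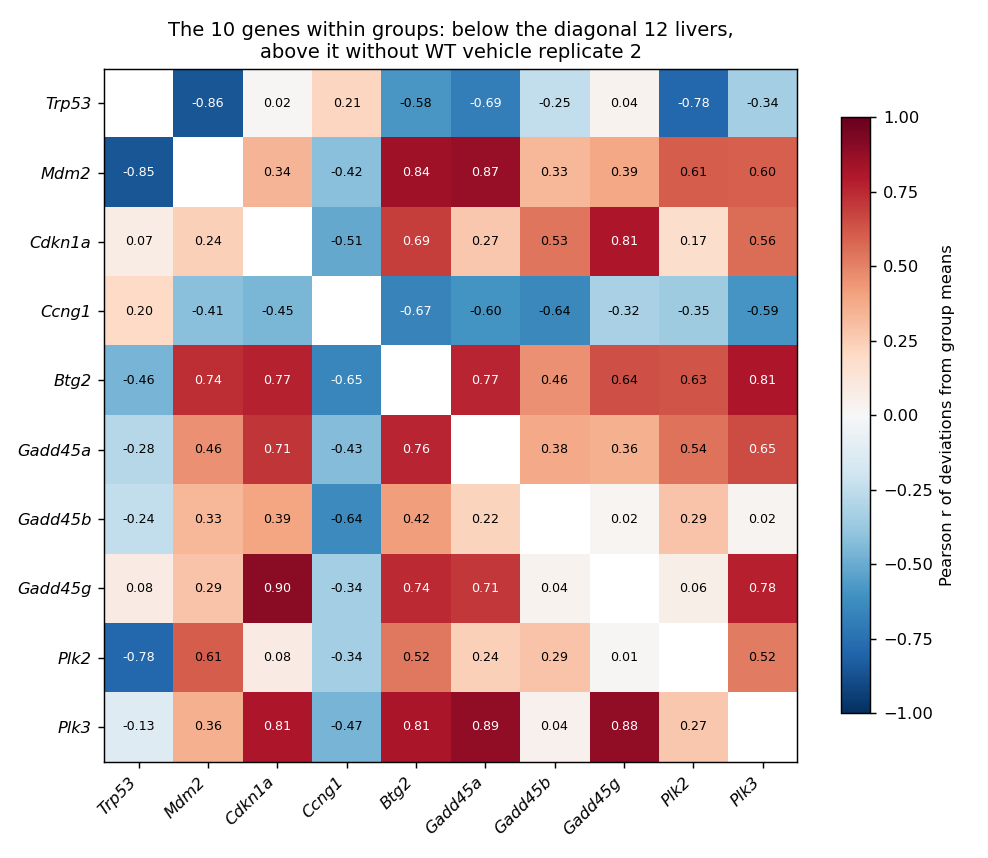
Pearson r between deviations from the group means for each pair of the 10 genes, in color and as numbers, below the diagonal over 12 livers and above it without WT vehicle replicate 2. *Cdkn1a*, *Btg2*, *Gadd45a*, *Gadd45g* and *Plk3* form a block of positive values below the diagonal, and the *Trp53* column is negative against *Mdm2* (-0.85) and *Plk2* (-0.78).

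For each of the 10 genes the 3 genes with the most similar pattern over the 12 livers were sought. Among 10911 genes compared by Pearson r of log2 CPM, *Mdm2* was most like *Ccn1* (r = 0.989), a matricellular gene induced early by serum and stretch, followed by *Mafk* and *Zswim6*. *Cdkn1a* was most like *Jund* (0.989), an AP-1 subunit, then *Trib1* and *Nasp*. *Gadd45a* was most like *Fosl2* (0.983), another AP-1 subunit, then *Sox9* and *Plk3*, and *Plk3* was likewise most like *Fosl2* (0.988), then *Trib1* and *Gadd45a*. *Gadd45b* was most like *Tnfrsf12a* (0.986), the TWEAK receptor, then *Psmd4* and *Dusp10*, and *Plk2* was most like *Bmp6* (0.969), then *Mdm2* and *Zswim6*. *Btg2* was most like *H3f3b* (0.978), *Gadd45g* most like *Rlf* (0.950), *Trp53* most like *Phrf1* (0.973) and *Ccng1* most like *Ide* (0.948). The difference between treatments enters every one of these values, and the livers share libraries and depth. By rank correlation 5 of the 30 genes so chosen were chosen again.

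Lists of related genes were read beside the 10 genes. Of 32 other p53 targets tested over the 12 livers, 11 were higher and 2 lower after APAP, with a median log2 fold change of 0.21, where 14% of all genes tested were called higher and 11.4% lower. *Gdf15*, a stress cytokine that suppresses appetite, was at 4.73 (edgeR's adjusted p = 0.000386), *Trp53inp1*, an autophagy and p53 cofactor, at 2.46 and *Btg1*, the sister gene of *Btg2*, at 2.35 (adjusted p = 1.33e-05). *Ccng2*, the sister of *Ccng1*, rose by 1.04, *Bbc3*, which encodes the death protein PUMA, by 0.82 and the nuclease gene *Aen* by 0.77. The 2 lower targets, named after their values were seen, were *Fdxr* at -0.69 and *Trp53i11* at -0.61. In WT livers 4 of 31 were higher and 0 lower, and in livers labelled KO 9 of 32 were higher and 1 lower. The shares over all genes were 1.62% higher and 0.427% lower in WT livers and 13% and 9.6% under the KO label.

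Of 18 tested p53 regulators and damage kinases, 4 were higher and 3 lower over the 12 livers, with a median of -0.18, beside the same 14% and 11.4% of all genes tested. *Chek1*, the checkpoint kinase, rose by 1.37, the histone gene *H2afx* by 0.93, the acetyltransferase gene *Kat5* by 0.48 and the checkpoint gene *Rad17* by 0.46. *Brca1*, a gene of double-strand break repair, fell to a log2 fold change of -1.72 (edgeR's adjusted p = 0.000672) and *Atr*, the replication stress kinase, to -0.42. In WT livers 0 of 18 were called by edgeR, with 3 at an unadjusted p under 0.05, while DESeq2 called 1 higher and 1 lower and limma 0. Of 14 GADD45 partners, 4 were higher and 2 lower, with a median of 0.27, again beside 14% and 11.4% of all genes tested. *Map2k6*, an activator of p38, fell to -3.02 (edgeR's adjusted p = 0.000281) and *Mapk14*, p38 itself, to -0.67, while *Rela* rose by 0.76, *Pcna* by 0.75, *Tdg* by 0.54 and *Map2k3* by 0.47. In WT livers 0 of 13 partners were called by edgeR, with 3 at an unadjusted p under 0.05, and DESeq2 called 1 lower and limma 0. In livers labelled KO edgeR called 4 regulators higher and 3 lower, and 3 partners higher and 2 lower. Of all genes tested, edgeR called 13% higher and 9.6% lower under the KO label, and 1.62% and 0.427% in WT livers. In WT livers 2817 of 15693 genes had an unadjusted p under 0.05 by edgeR.

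Of 13 tested BTG and polo-like paralogs and kinase inhibitors, 5 were higher and 1 lower, with a median of 0.17. Of all genes tested, 14% were called higher and 11.4% lower. *Btg3* rose by 2.09 and *Plk4*, the kinase of centriole duplication, by 2.04, while *Plk5* fell to -1.33. In WT livers 2 of 13 were higher and 0 lower, and in livers labelled KO 5 were higher and 2 lower. The shares over all genes were 1.62% higher and 0.427% lower in WT livers and 13% and 9.6% in livers labelled KO. *Cdkn2b*, the inhibitor p15, had 0 to 5 counts in the vehicle livers and 34 to 73 counts in the APAP livers, too few with vehicle for its fitted fold change to be read as a size. *Btg1* and *Ccng2* stand in both this list and that of p53 targets.

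**Figure D5:**
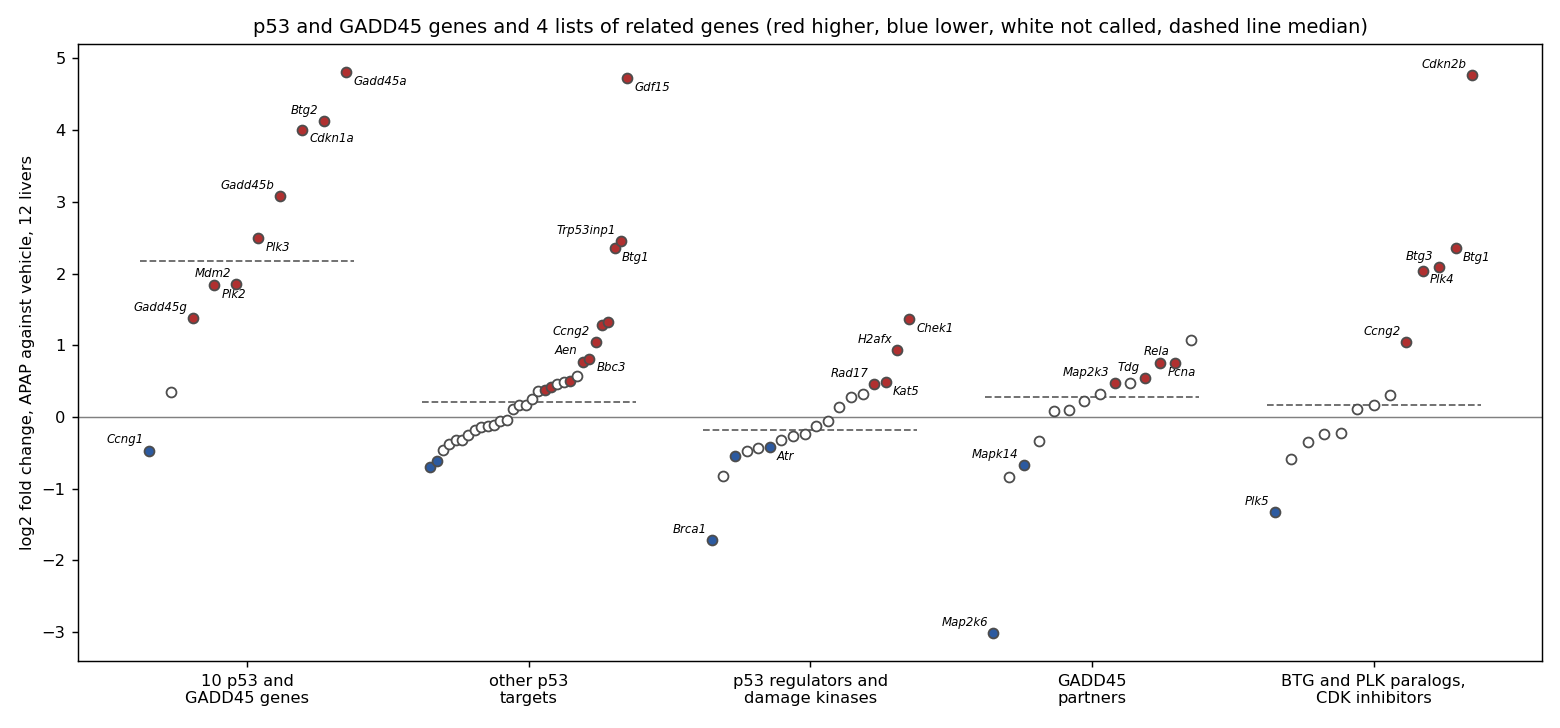
Log2 fold change, APAP against vehicle over 12 livers, of the 10 genes and of 4 lists of related genes, 1 point per gene sorted within its list. Red points were called higher, blue lower and white neither, and dashed lines are medians, at 2.17 for the 10 genes and between -0.18 and 0.27 for the lists; the *Cdkn2b* point rests on 0 to 5 vehicle counts.

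Other cell types were followed by their markers over the same 12 livers, where 14% of all genes tested were called higher and 11.4% lower. Of the hepatocyte markers 0 of 10 were called in either direction, and likewise 0 of 10 Kupffer cell and monocyte, 0 of 10 lymphocyte and 0 of 6 erythroid markers (edgeR). At an unadjusted p under 0.05 there were 1, 1, 1 and 0 of them, and DESeq2 called 1 hepatocyte and 1 Kupffer cell marker lower. In livers labelled KO alone, 2 Kupffer cell, 2 endothelial, 3 stellate cell and 1 lymphocyte marker were lower, and 1 endothelial, 1 hepatocyte, 1 neutrophil and 1 cholangiocyte marker were higher. Of all genes tested in those livers, 9.6% were called lower and 13% higher. Over the 12 livers, 4 of 10 endothelial markers were higher, *Lyve1*, *Pecam1*, *Cdh5* and *Stab1*, all named after their values were seen, and of 10 stellate cell markers 1, *Lrat*, was lower. The cholangiocyte markers *Sox9* and *Epcam* and the neutrophil marker *Cxcr2* were higher, 2 of 6 and 1 of 7. All 7 tested neutrophil markers had an unadjusted p under 0.05 over the 12 livers (median change 2.69 on the log2 scale). All 7 did so between the labels after APAP, where 0 passed the adjusted threshold (edgeR). Of all genes tested, 6132 of 16509 had such an unadjusted p over the 12 livers, and 536 of 16174 between the labels after APAP. Neutrophil markers summed to 134, 13.8 and 23.2 CPM in WT APAP livers and to 1.20 to 9.17 CPM in APAP livers labelled KO, and *Camp* was at 0 in all livers. Of the 10 genes, *Mdm2*, *Btg2*, *Gadd45a*, *Plk2* and *Plk3* were highest of all 12 livers in WT APAP replicate 1 by CPM. The TMM scaling factor of that library, 0.75, was the lowest of the 12. By TPM only *Btg2* (395) and *Gadd45a* (136) stayed highest there. *Mdm2*, at 40.3 TPM, was there the lowest of the APAP livers, and *Plk2* and *Plk3*, at 11.1 and 399 TPM, were not the highest. By CPM, WT APAP replicate 1 also held the highest neutrophil, erythroid, hepatocyte, endothelial, stellate cell, cholangiocyte and lymphocyte sums, with hepatocyte markers at 155095 CPM against at most 111638 CPM elsewhere. The part of these cells and of the scaling in the levels of the 5 genes was not tested.

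Some of the counts can be shared with other genes. *Gadd45a* overlaps the noncoding RNA *E230016M11Rik* on the opposite strand over 337 exonic bases (19.1% of its exons), and that RNA had 33 to 99 counts per liver, while *Gadd45a* itself had 31 to 83 in the 5 vehicle livers other than WT vehicle replicate 2. The library kit marks strand, but the strand setting of the counting is not given in the sources used here, so the vehicle level of *Gadd45a* is uncertain to that extent. *Plk3* overlaps *Tctex1d4* over 84 bases, with 0 to 21 counts, and *Cdkn1a* overlaps a gene model on the opposite strand over 273 bases. *Trp53* has a copy, *Trp53-ps*, that matches it over 1170 bases at 94.9% identity and had 0 to 2 counts per liver.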

How the data were processed

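RNA from 12 livers, 3 in each of 4 groups, was prepared with a poly-A, strand-marking kit and sequenced in pairs. The read counts, FPKM and TPM per gene were deposited by the authors in 1 table on mm10. FPKM, deposited per length and per library total, was used for no result, and TPM, deposited likewise, served for levels between genes and for limma. The submitters' processing notes name FastQC 0.11.7, Trimmomatic 0.38, HISAT2 2.1.0, Bowtie2 2.3.4.1 and StringTie 2.1.3b without a role, and the counting settings are not given in the sources used here. The table's columns held 0 libraries outside the 12 samples.

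Counts were filtered with filterByExpr, scaled by TMM and tested with edgeR 4.0.16 (quasi-likelihood, R 4.3.3), and p-values were adjusted by Benjamini-Hochberg across the genes of each fit, with calls under 0.05. APAP was compared with vehicle within each label (6 livers) and over 12 livers with the label as covariate, the labels were compared within each treatment, and the interaction was fitted over 12 livers. Of the 45777 genes, 19370 had no count. Alternatives were DESeq2 1.42.0, its size factors, other filters, limma 3.58.1 on quantile-normalised log2 TPM plus 1 or 0.1, a replicate block, 1 fit of all livers, and each liver left out. Scripts were tested on simulated data. All replicate pairs differed by more than sampling noise. The labels give no batch. Total counts ran from 49737950 to 69566079.

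Promoters and loci came from RefSeq GRCm38.p6, and copies were sought with blastn 2.17.0 at 90% identity over 300 bases. The 10 genes were matched by symbol and all 10 had a promoter. The 10 genes and the lists were chosen with earlier results of these data known. Named beside them are at most 6 genes per list, those with the smallest unadjusted p over the 12 livers, and the 3 genes most like each of the 10 by Pearson r of log2 CPM (prior count 2) among genes with a mean of at least 1. Fold changes are on the edgeR scale.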

Additional observations from a re-analysis of the deposited data

How the results depend on the processing

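Of 490 values for the 10 genes in the APAP comparisons under other settings, 448 kept their direction and side of the threshold, 27 fell below it, 14 passed it and 1 turned in direction. Between labels 27 of 480 turned, all among values not called. In WT livers 6 of the genes were called higher with DESeq2's Wald test, 6 with all 12 livers in 1 fit, 6 without both WT vehicle replicate 2 and WT APAP replicate 1, and 2 to 6 with 1 liver left out. Over the 12 livers 0 were called lower with the replicate block and 0 to 1 with 1 liver left out. By Spearman's rho 5 of the 30 most alike genes were kept. The cause of these changes was not tested.

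Replicate numbers did not pair the livers: deviations of same-numbered livers correlated at -0.264 to 0.049. With the block, *Ccng1* over the 12 livers and *Trp53* under the KO label lost their calls, and *Gadd45b* between labels with vehicle went from -0.02 to 0.054. The latter was 0.065 with limma on log2(TPM + 1) and 0.12 on log2(TPM + 0.1), and *Plk3* between labels after APAP was -0.011 and -0.010 on these scales. With all livers in 1 fit, *Trp53* and *Gadd45g* were not called under the KO label, and *Trp53* was not called with limma.

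Each liver was left out singly, and WT vehicle replicate 2 and WT APAP replicate 1 were also left out together. The log2 fold change of *Trp53* in WT livers then ran from -0.083 to 0.30, the latter without both. Between labels after APAP, *Mdm2* ran from -0.038 to 0.32, *Cdkn1a* from -0.11 to 0.63, *Ccng1* from -0.27 to 0.069, *Btg2* from -0.077 to 2.62 and *Gadd45a* from -0.043 to 1.15. With vehicle, *Gadd45b* ran from -0.32 to 0.21 and *Plk2* from -0.25 to 0.0038. In the interaction, *Cdkn1a* ran from -1.49 to 0.19, *Ccng1* from -0.073 to 0.24, *Btg2* from -2.57 to 0.83, *Gadd45a* from -2.49 to 0.63, *Gadd45b* from -0.51 to 0.13 and *Plk3* from -1.19 to 0.15, and *Cdkn1a* was 0.11 without both livers.

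Over all genes, 255 were called higher and 67 lower in WT livers, against 877 and 536 with DESeq2, 968 and 555 with all livers in 1 fit, 61 and 1 with the block, 435 and 196 without both livers, 41 to 316 and 0 to 126 with 1 liver left out, and 169 higher with limma on log2(TPM + 1). Under the KO label 1504 lower became 844 in 1 fit and 734 to 1401 with 1 liver left out, and 2034 higher became 1261 to 1967. After APAP DESeq2 called 21 genes higher and 8 lower between labels (edgeR 2 and 3), and with vehicle 62 and 75 (edgeR 2 and 2). Over the 12 livers limma called 1944 higher and 2447 lower against 2307 and 1880.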
